A study of Mus musculus with 2 samples.

Results

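The genes of the vascular endothelial growth factor (VEGF) system were read on 2 oligonucleotide arrays of total RNA from mouse bone. One array holds an allograft and the other an autograft. The 10 members were the ligand genes Vegfa, Vegfb, Vegfc, Vegfd and Pgf, the receptor genes Flt1, Kdr and Flt4 and the co-receptor genes Nrp1 and Nrp2. They were chosen for their known part in graft vascularisation, and every probe set with a member as its single gene symbol in the platform annotation was taken, a probe set being a group of short oligonucleotides read together as 1 value. This gave 18 probe sets out of 22626 that are not controls, for 10 of the 12393 genes named by a probe set of their own. The labels give the bone as the femur of c57Bl/6 mice. For the allograft they do not say whether that strain was donor or recipient, and for neither sample do they give the time after grafting, the age of the animals, any treatment, or whether several animals were pooled.

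VEGF ligands are secreted dimers that bind receptor tyrosine kinases on endothelial cells. Vegfa acts mainly through Kdr, Vegfb and Pgf bind Flt1, and Vegfc and Vegfd are the ligands of Flt4, the receptor of lymphatic endothelium. Neuropilins, which also bind semaphorins, present the ligands to the receptors. In bone, Vegfa is made by hypertrophic cartilage and by osteoblasts and draws vessels into mineralised matrix, and a graft of bone has to be entered by vessels before it can be remodelled.

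The promoters of the ligands with opposite signs on these arrays, Vegfa and Vegfd, and of the receptors read above the floor in the autograft alone by at least 1 probe set, Flt1 and Flt4, are shown as the 250 bases before the RefSeq start in assembly GRCm38.p6, each 5′ to 3′ on the strand of its gene. Capitals mark the motifs searched on both strands: ACGTG, the core of the hypoxia response element, GGAAG, a core bound by ETS factors, GGGCGG, the GC box, and TATAAA, the TATA box. None of these motifs contains another. For genes with several starts in the table the one farthest upstream was used.
Vegfa promoter, chr17:46032378-46032627, - strand: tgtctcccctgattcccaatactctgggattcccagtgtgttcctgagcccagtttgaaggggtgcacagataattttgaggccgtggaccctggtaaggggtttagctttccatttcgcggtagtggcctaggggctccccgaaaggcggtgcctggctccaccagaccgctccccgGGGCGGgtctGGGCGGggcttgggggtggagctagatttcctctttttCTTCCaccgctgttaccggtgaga
Vegfd promoter, chrX:164373272-164373521, + strand: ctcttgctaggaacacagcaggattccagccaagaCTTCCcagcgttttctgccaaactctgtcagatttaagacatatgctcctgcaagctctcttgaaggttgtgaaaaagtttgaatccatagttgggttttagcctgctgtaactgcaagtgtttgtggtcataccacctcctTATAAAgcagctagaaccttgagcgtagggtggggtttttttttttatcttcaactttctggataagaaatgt
Flt1 promoter, chr5:147726012-147726261, - strand: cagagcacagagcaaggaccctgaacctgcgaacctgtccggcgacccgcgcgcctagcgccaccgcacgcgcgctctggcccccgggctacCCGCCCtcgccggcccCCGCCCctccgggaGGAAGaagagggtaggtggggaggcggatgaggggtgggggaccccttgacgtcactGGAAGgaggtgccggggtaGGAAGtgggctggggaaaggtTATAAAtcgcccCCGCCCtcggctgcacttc
Flt4 promoter, chr11:49609429-49609678, + strand: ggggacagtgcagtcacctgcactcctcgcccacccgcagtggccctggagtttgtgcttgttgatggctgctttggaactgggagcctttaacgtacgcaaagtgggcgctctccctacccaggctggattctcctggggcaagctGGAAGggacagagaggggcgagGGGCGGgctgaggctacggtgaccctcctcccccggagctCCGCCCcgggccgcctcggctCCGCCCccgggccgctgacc
ACGTG was found in 0 of the 10 member windows and in 16.5% of the windows of all 27025 genes in the RefSeq table, which says only that these letters are not in these windows. GGGCGG was found in 9 of the 10 member windows, the exception being Vegfd, and in 33.0% of all windows. The GC content of the member windows ran from 42.4% for Vegfd to 76.4% for Vegfb, against a median of 52.0% over all genes. TATAAA was found in 2 of the 10, at position -31 of Flt1 and at -73 of Vegfd, counted from the start, and in 13.0% of all windows, and GGAAG in 6 of the 10 and in 63.7% of all windows. Vegfa and Flt4, both without TATAAA, held 2 and 3 copies of GGGCGG.

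The deposited intensities had a 2% trimmed mean of 500.2 on the allograft and 500.1 on the autograft array and were compared as deposited. The floor, below which a value was not ranked, was the median over both arrays of all non-control intensities, 175.2. The allograft array alone had a median of 166.8 and the autograft array 184.2. A shared floor therefore places more autograft than allograft values above it. Ratios are log2 of allograft over autograft, so a 2-fold difference is 1 or -1, and where a probe set was above the floor on 1 array alone its fold is a bound against the floor. With 1 array per graft type no difference has a replicate check and no p-value is given; the precision of every value is limited by this number of arrays. The beta-actin controls, whose 3′ signal gains on the 5′ signal as RNA degrades, had a 3′ to 5′ ratio of 1.77 in the allograft and 1.19 in the autograft. For the Gapdh controls it was 0.194 and 0.0349, with the 5′ signal the stronger one, and the part of RNA quality in the values below was not tested. All 6 osteoblast markers with a probe set were above the floor on both arrays by their brightest probe set.

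Among the VEGF genes, both arrays read 11 of the 18 probe sets above the floor, the autograft array alone 5, the allograft array alone 0 and neither array 2. Of the 11, 0 were 2-fold higher and 0 were 2-fold lower in the allograft, against a background of 1.17% higher and 0.677% lower among all 10640 probe sets that both arrays read above the floor. A total of 7 of the 11 had a ratio below 0, against 56.1% of all such probe sets. Their median log2 ratio was -0.14, against -0.05 over all 10640, of which the central 95% ran from -0.75 to 0.76. All 11 member ratios lay inside that range. Of the probe sets above the floor on 1 array alone, 68.1% were so in the autograft, beside 5 of 5 VEGF probe sets. These were 3 probe sets of Flt1 and 1 each of Vegfa and Flt4, so they are not separate genes. In bulk tissue, fewer cells of a type and less RNA per cell cannot be told apart.

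**Figure D1:**
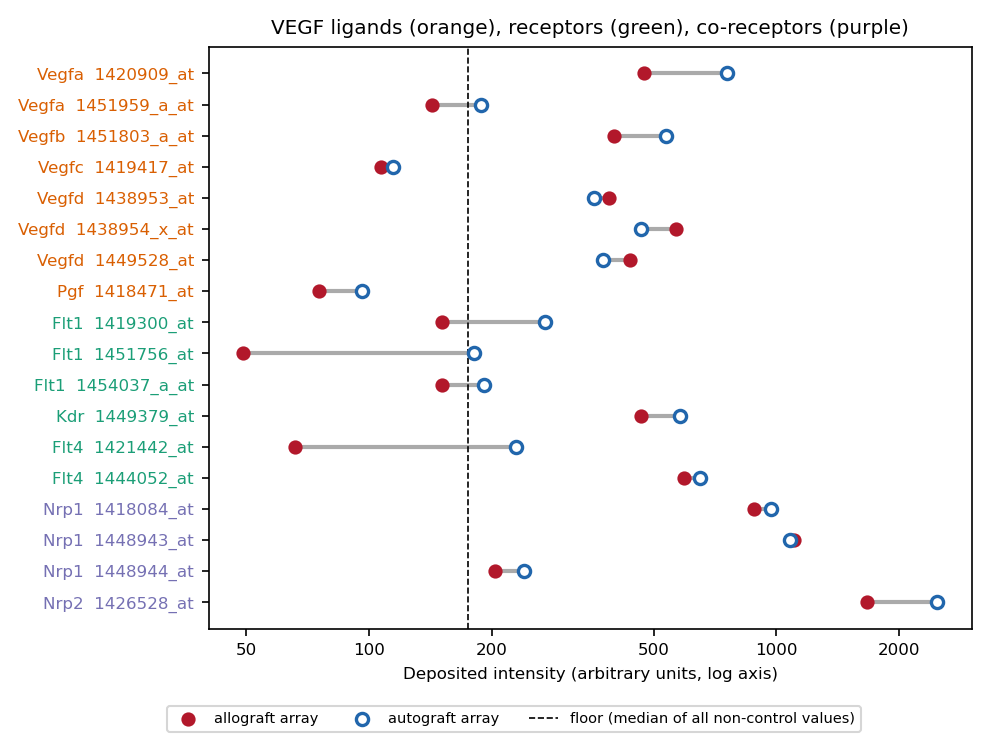
Deposited intensity (log axis, arbitrary units) of each VEGF probe set in the allograft (filled red) and in the autograft (open blue), 1 array each, with the floor of 175.2 dashed. All 6 receptor probe sets read lower on the allograft array, and the 3 Vegfd probe sets read higher.

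Vegfa, the main growth factor of vessels, read 472.9 in the allograft and 755.7 in the autograft by probe set 1420909_at, a log2 ratio of -0.68 and the lowest among the 11. Of those 10640 probe sets, 3.80% had a ratio as low or lower. The second Vegfa probe set, 1451959_a_at, read 142.5 and 188.4, so that it was above the floor in the autograft alone, by at least 1.08-fold. Both Vegfa probe sets thus read lower in the allograft, but only the brighter one was measured on both sides. At a threshold of 1.5-fold, Vegfa by 1420909_at was the only one of the 11 probe sets counted as lower and 0 were counted as higher, against 6.14% lower and 4.92% higher among all probe sets.

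Markers of the cells known to make Vegfa in bone differed between the arrays as well. Of the hypertrophic cartilage list, 4 of 5 genes had a probe set. Their intensities summed to 8327 in the allograft and 10055 in the autograft, and none was at 0. The collagen gene Col10a1, which defines that cartilage, stood at -1.51 (361.8 against 1029.1) and the parathyroid hormone receptor Pth1r at -0.93, while the collagenase Mmp13 stood at 0.09 and the hedgehog ligand Ihh was below the floor on both arrays. Of the osteoblast list, 6 of 8 genes had a probe set, with 3 above and 3 below 0, whereas 58.5% of all genes were below 0. In this list 2 genes were 2-fold higher, against 0.887% of all genes, and 1 was 2-fold lower, against 0.676%. Its summed intensity was 21905 in the allograft against 18631 in the autograft, with none at 0. Its median ratio was -0.27, against -0.07 over all genes. Below 0 were Alpl, the phosphatase of mineralising cells, at -1.25, Dmp1 at -0.83 and Sp7 at -0.60. Above 0 were Col1a1, a chain of type I collagen, at 2.70 (4994.2 against 770.7), Col1a2 at 1.11 (5110.7 against 2362.3) and Ibsp at 0.05. Further probe sets of Col1a1 (2735.8 against 31.3) and of Col1a2, the other chain (445.5 against 14.9), were above the floor in the allograft alone, at log2 bounds of 3.96 and 1.35. The part of either cell type in the Vegfa values was not tested.

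Vegfb, a ligand of Flt1 that is abundant in muscle and fat, read 400.3 in the allograft and 535.9 in the autograft by its 1 probe set, 1451803_a_at. Its log2 ratio was -0.42, and 13.6% of all probe sets had a ratio as low or lower. The skeletal muscle markers stood the other way, with 7 of 8 above 0 and a median of 0.39, or 0.10 after quantile normalization. Of all genes above the floor on both arrays, 58.5% were below 0. The muscle list was summed as well. The summed intensity of the muscle markers was 51388 in the allograft against 38518 in the autograft. None was at 0, and the part of muscle in the Vegfb value was not tested.

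Vegfd, a ligand of Flt4, was the one ligand gene with higher readings in the allograft. Probe set 1438953_at read 388.5 in the allograft and 356.3 in the autograft, 1438954_x_at read 566.8 and 464.7, and 1449528_at read 437.4 and 375.2. The log2 ratios were 0.12, 0.29 and 0.22, all above 0 and each well short of 2-fold. For 520 genes, at least 3 probe sets could be ranked on both arrays, and the 3 brightest were all above 0 in 23.7% and all below 0 in 17.3%, so such accord was common on these arrays. The x in the name of 1438954_x_at marks a probe set that may cross-hybridise to other transcripts, and the 3 probe sets share 1 target gene.

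The other ligand genes could not be ranked. Vegfc, the main lymphatic growth factor, read 107.0 in the allograft and 114.9 in the autograft by 1419417_at, below the floor on both arrays. Pgf, placental growth factor, read 75.5 and 96.0 by 1418471_at, also below the floor on both. For these genes the arrays show only that the signal was under the median of all probe sets.

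**Figure D2:**
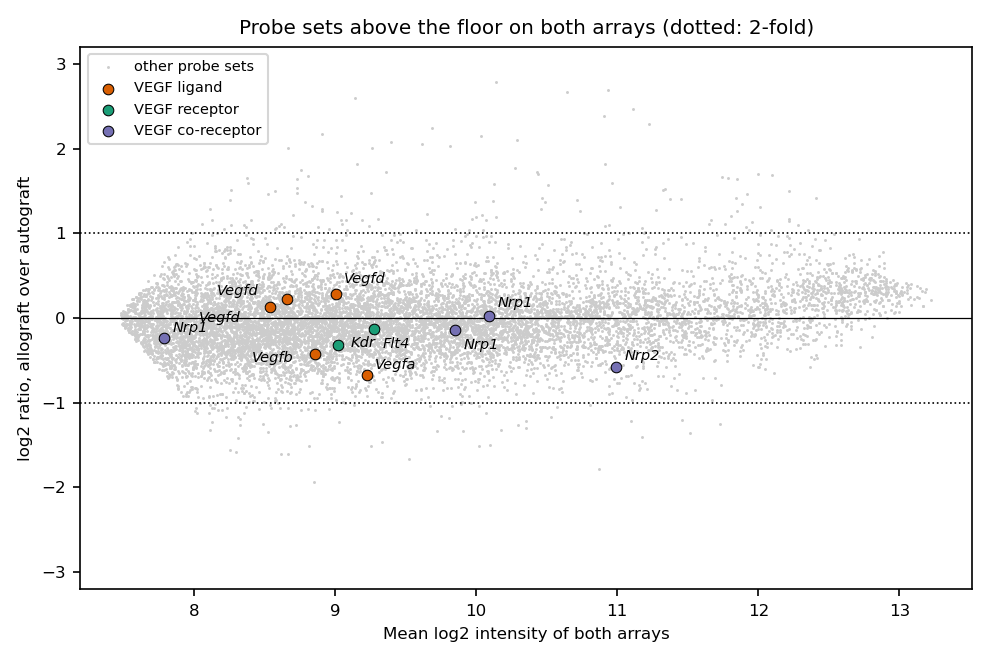
log2 ratio of allograft over autograft (vertical axis) against mean log2 intensity (horizontal axis) for probe sets that both arrays read above the floor, with the 11 VEGF probe sets coloured by role and dotted lines at 2-fold; 1 other probe set lies outside the axis range. The VEGF points lie between -0.68 (Vegfa) and 0.29 (Vegfd), inside the cloud of all probe sets.

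All 6 receptor probe sets read lower in the allograft as deposited, 2 of them above the floor on both arrays and 4 above it in the autograft alone. The same direction was seen in 59.4% of all non-control probe sets. Kdr, the kinase receptor that carries most of the vessel growth signal of Vegfa, read 466.1 in the allograft and 580.9 in the autograft by its 1 probe set, 1449379_at. Its log2 ratio was -0.32, and 21.3% of all probe sets had a ratio as low or lower.

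Flt1, a receptor that binds Vegfa tightly and in its soluble form traps it, was above the floor in the autograft alone by each of its 3 probe sets. Probe set 1419300_at read 151.3 in the allograft and 270.2 in the autograft, at least 1.54-fold higher in the autograft. Probe set 1454037_a_at read 151.2 and 191.6, at least 1.09-fold, and 1451756_at read 49.2 and 180.7, at least 1.03-fold. The last was close to the floor in the autograft, so its bound is small although its deposited values are farther apart than those of the other probe sets. Its autograft value was below the median of the autograft array, 184.2. Quantile normalization, centring and removal of the trend with intensity gave no ratio for 1451756_at.

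Flt4, the lymphatic receptor, gave different values by its probe sets. Probe set 1444052_at read 593.0 in the allograft and 649.8 in the autograft, a log2 ratio of -0.13 that lay near the middle of all probe sets, of which 40.3% were as low or lower. Probe set 1421442_at read 65.9 and 229.7, at least 1.31-fold higher in the autograft. With the floor at the 25th percentile this probe set could be ranked on both arrays, at -1.80, and it was then the 1 member probe set ranked on both arrays that was 2-fold lower, against 1.97% of all such probe sets under that floor. The Flt1 probe set 1451756_at was under that floor in the allograft alone and was at least 3.57-fold higher in the autograft. Without a floor, on log2 of the intensity plus 16, 1421442_at stood at -1.58 and the Flt1 probe set 1451756_at at -1.59. These 2 were then counted as 2-fold lower, against 4.17% of all probe sets.

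Markers of blood endothelium stood mostly on the same side as the receptors. Of the blood endothelium list, 14 of 15 genes had a probe set and 11 could be ranked on both arrays, 9 of them below 0, against 58.5% of all genes. One of the 11, Robo4, a receptor that stabilises vessels, was 2-fold lower in the allograft (-1.23, 182.1 against 427.9), against 0.676% of all genes. Robo4 had 1 probe set, and its allograft value was close to the floor of 175.2. Of the 11, 0 were 2-fold higher, against 0.887% of all genes. Cdh5, the cadherin of endothelial junctions, stood at -0.43 and Pecam1, an adhesion protein of the same junctions, at -0.31, whereas Tek, the angiopoietin receptor, stood at 0.17 and Vwf, the clotting factor stored in endothelium, at 0.17. The intensities of the list summed to 5393 in the allograft and 6178 in the autograft, none was at 0, and Erg and Tie1 were below the floor on both arrays. Of the lymphatic list 3 of 4 genes had a probe set, with sums of 2344 and 2582. Lyve1, a hyaluronan receptor, stood at -0.09 and Pdpn, podoplanin, which osteocytes also make, at -0.13, while the defining factor Prox1 was below the floor on both arrays. The part of endothelial cell number in the receptor values was not tested.

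The neuropilins were read above the floor on both arrays by all 4 of their probe sets. Nrp2, the co-receptor of lymphatic endothelium that many other cells also carry, read 1667 in the allograft and 2482 in the autograft by 1426528_at, a log2 ratio of -0.57 with 6.44% of all probe sets as low or lower. For Nrp1, the co-receptor of Kdr, the probe sets straddled 0. Probe set 1418084_at read 878.7 in the allograft and 967.8 in the autograft (-0.14), 1448943_at read 1102.5 and 1080.0 (0.03), and 1448944_at read 204.0 and 240.1 (-0.24). For Nrp1 the arrays thus gave no direction, whereas Nrp2 rested on a single probe set.

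Probe sets of one gene give the only measure of spread within this pair of arrays, and it holds no variation between animals or hybridisations. Both arrays read at least 2 probe sets above the floor for 1925 genes. Between the brightest and the next, the ratios differed with an SD of 0.44, and they had the same sign in 60.8%. This SD belongs to a difference between 2 ratios, so it is not the error of a single ratio. The member ratios were not sorted by it. In 83 of the 1925 genes the brighter probe set was lower in the allograft by at least 1.5-fold. The next was below 0 in 67 of the 83 (80.7%) and itself 1.5-fold lower in 16 (19.3%). The shares over all 10640 probe sets ranked in both grafts were 56.1% and 6.14%. Vegfa was not among the 83, because its second probe set passed the floor in the autograft alone. These shares therefore give no check of the Vegfa ratio.

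**Figure D3:**
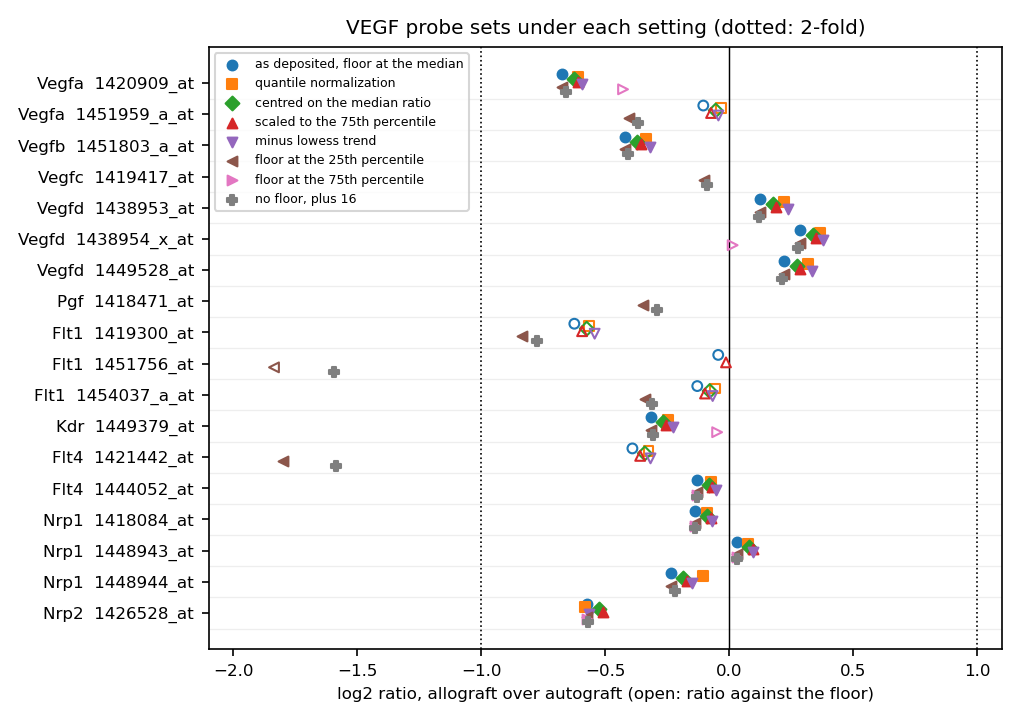
log2 ratio of allograft over autograft (horizontal axis) of the VEGF probe sets under the deposited scaling and under each alternative scaling or floor, 1 symbol per setting; open symbols are ratios against the floor and dotted lines mark 2-fold. Vegfa by 1420909_at stays between -0.68 and -0.43 and by 1451959_a_at between -0.40 and -0.03, and only 1 probe set each of Flt4 and Flt1 passes -1, under the lowest floor or none.

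No member above the floor on both arrays changed sign under any of the scalings or floors that gave it a ratio. Vegfa by 1420909_at ran from -0.68 to -0.43, Nrp2 from -0.58 to -0.51, Vegfb from -0.42 to -0.32 and Kdr from -0.32 to -0.05. The Vegfd probe sets stayed above 0, between 0.01 and 0.38. The values nearest to 0 for Vegfa, Kdr and Vegfd came with the floor at the 75th percentile, where each was above the floor on 1 array alone and its ratio was a bound.

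The genes around the VEGF receptors were compared by lists, each gene by its brightest probe set. Of 47 genes of VEGF signalling inside the cell, 37 had a probe set and 33 were above the floor on both arrays, with 22 below 0, against 58.5% of all genes, 11 above 0, and 0 of them 2-fold apart in either direction, against 0.887% higher and 0.676% lower. After quantile normalization, centring, 75th-percentile scaling or removal of the trend with intensity, 1 was 2-fold higher. Their median was -0.11, against -0.07 over all genes above the floor on both arrays. Nfatc1, a transcription factor activated by calcineurin that also drives osteoclast formation, stood at -0.61 (817.2 against 1249.4) and Sphk2, a sphingosine kinase, at -0.57. At the other end were Nck1, an adaptor protein that links receptors to the actin skeleton, at 0.98 (756.2 against 384.7) and Ppp3r1, the regulatory subunit of calcineurin, at 0.44. The second probe sets of Nck1, Sphk2 and Ppp3r1 were below the floor on both arrays. That of Nfatc1 was above it in the autograft alone (129.2 against 220.5).

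Genes of oxygen sensing, which set the transcription of Vegfa, stood near 0 as a list. Of 6 members, 4 were below 0, against 58.5% of all genes. The list median of -0.07, beside -0.07 over all genes, became 0.023 once the trend of the ratio with intensity was removed. Hif1a, the oxygen-regulated transcription factor, was at the upper end at 0.46 (2147 against 1556), with another probe set at 0.41 and its further probe sets below the floor on both arrays. Egln3, an enzyme that marks Hif1a for breakdown and is itself a target of it, stood at 0.39 (249.9 against 190.7), its second probe set being below the floor on both. Cited2, which competes with Hif1a for its coactivator, stood at -0.26 and Egln1, the main oxygen sensor of the family, at -0.22. The second probe set of Egln1 stood at -0.51, and that of Cited2 was above the floor in the autograft alone (111.3 against 181.7). The ratios of Hif1a and Vegfa had opposite signs, and the part of oxygen sensing in the Vegfa values was not tested. Epas1, Arnt, Arnt2 and Vhl were below the floor on both arrays.

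Of the semaphorins and plexins that share the neuropilins, 10 of 13 genes had a probe set. Both arrays read 6 above the floor, with 4 below 0 and a median of -0.15. Among all genes so ranked, 58.5% fell below 0 and the median was -0.07. Plxna3, a semaphorin receptor, stood at -0.95 (265.6 against 512.3) and Gipc1, an adaptor that binds the tail of neuropilin, at -0.55. Plxna2 was above the floor in the autograft alone, by at least 2.32-fold (164.8 against 406.2). Sema3a, the repulsive ligand of Nrp1, stood at 0.18 and Sema3c at 0.00. The further probe sets of Plxna3 and Sema3a were below the floor on both arrays.

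Of the 8 regulators of VEGF receptors at the endothelial surface that could be ranked on both arrays, 7 were below 0. The share over all genes was 58.5%. The median of the 8 was -0.23, against -0.07 over all genes. Notch4, an endothelial Notch receptor, was lowest at -0.48 (294.5 against 410.6), and next to Cdh5 stood Ptprb, a phosphatase of the same junctions, at -0.40. The highest were the phosphatase Ptprj at 0.07 and Itgav, the integrin chain, at -0.02. Dll4, the Notch ligand that Vegfa switches on in tip cells, read 105.4 against 125.4, below the floor on both arrays.

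Genes that bind or release VEGF in the matrix went the other way from most lists, with a median of 0.12. Of 7 members, 6 were above 0 and 1 below, whereas 58.5% of all genes were below 0. Quantile normalization took the list median to -0.0018. Ccn2, a matrix protein that binds Vegfa, stood at 0.33 (2890 against 2304) and Mmp2, a gelatinase, at 0.20 with a second probe set at 0.54, while Hspg2, the heparan sulfate proteoglycan perlecan, stood at -0.42 with a second probe set at -0.83. The platelet-derived growth factor genes, relatives of the VEGF ligands and receptors, had a median of -0.33. Of 5 members, 4 were below 0, against 58.5% of all genes. Pdgfb, the ligand that recruits pericytes, stood at -0.47 (787.4 against 1087.6), its receptor Pdgfrb at -0.40 with a second probe set at -0.69, and Pdgfra at 0.04. Pdgfa stood at -0.13, but its second probe set stood at 0.31 (705.6 against 570.8). The median of this list was -0.19 by the mean of the probe sets of each gene. With the floor at the 25th percentile it was -0.23. By 1 value per gene the VEGF genes themselves had a median of -0.32 over 7 genes, and no difference between these lists was tested. In the angiopoietin system, Angpt2, which loosens vessels, was above the floor in the autograft alone, by at least 1.16-fold (157.4 against 203.2).

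**Figure D4:**
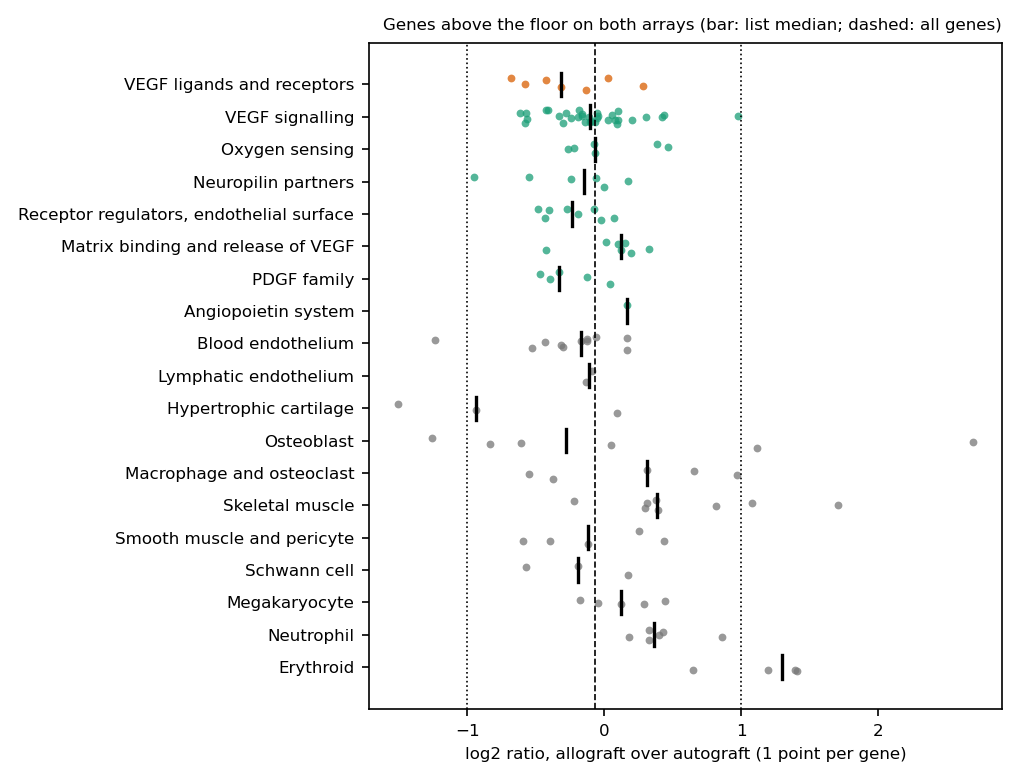
log2 ratio of allograft over autograft (horizontal axis) of the genes above the floor on both arrays, 1 point per gene by its brightest probe set, for the VEGF genes (orange), the lists around the pathway (green) and the cell type markers (grey); bars are list medians, the dashed line is the median of all genes at -0.07 and dotted lines mark 2-fold. The VEGF genes spread from -0.68 to 0.29, less than the osteoblast markers, which run from -1.25 to 2.70.

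Markers of other cells in the samples also differed between the arrays. Among all genes above the floor on both arrays, 58.5% were below 0. The 4 erythroid markers with a probe set were all above 0, at 0.65 to 1.41, with sums of 16245 against 7953, and the 6 neutrophil markers were all above 0 with a median of 0.37 and sums of 33157 against 25300. Macrophage and osteoclast markers, of which 5 of 6 could be ranked on both arrays, had sums of 26927 against 21300. They ran from -0.55 for Cd68, a lysosomal protein of macrophages, to 0.97 for Acp5, the acid phosphatase of osteoclasts. Csf1r stood at 0.65 (8219 against 5221) by its brightest probe set, with others at -0.03 and -0.59. The median of this list was 0.31. It was 0.006 after quantile normalization, 0.05 after removal of the trend with intensity and -0.03 with the floor at the 25th percentile. Smooth muscle and pericyte markers had sums of 13634 against 13690, with 2 of 5 above 0. Their median was -0.12, but -0.34 after quantile normalization and 0.07 with the floor at the 75th percentile. Schwann cell markers had sums of 809 against 948, with 1 of 3 above 0. Megakaryocyte markers, from cells that store Vegfa, had sums of 11163 against 9004, with 3 of 5 above 0. None of these markers was at 0. The part of these cells in the VEGF values was not tested.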

How the data were processed

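The deposited table holds 1 intensity per probe set and array on a linear scale; how the authors computed and scaled these intensities is not stated in the labels or the file. Of 22690 probe sets, 64 were controls. The platform annotation gave a single gene symbol for 20380 of the rest, several for 691 and none for 1555. Entrez identifiers of 20351 matched RefSeq (GRCm38.p6), which changed 0 symbols. Intensities were used as deposited because their trimmed means lay within 10% of each other. Values below the floor, the median of non-control intensities, were set to it before log2. From each list, the 2 highest and 2 lowest genes above the floor on both arrays and up to 2 bounds were set to be named. The text does not name all of these: Sox18, Sox17, Thbs1 and Adgre1 are left out, and some marker lists are given without genes. Other genes given beside them were picked after their values were seen. Members and lists were chosen with earlier results of these data known. Quantile normalization, centring, 75th-percentile scaling, a lowess fit (span 0.4), other floors, no floor with 16 added, thresholds of 1.5-fold and 4-fold, unmarked probe sets and other summaries per gene were the alternatives. The counting was tested on simulated data. The work was done with pandas 2.3.3, numpy 2.4.6 and statsmodels 0.14.6 in Python 3.11.15.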

Additional observations from a re-analysis of the deposited data

How the results depend on the processing

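The count of VEGF probe sets 2-fold lower in the allograft, 0, became 1 when the floor was the 25th percentile and 2 without a floor, where dimmer values are ranked, and 1 at the 1.5-fold threshold. No alternative gave a member 2-fold higher. The member median of -0.14 moved to -0.32 when the floor was the 25th percentile and to -0.30 without one. It was -0.32 with 1 value per gene from the brightest probe set, and -0.32 from the mean of its probe sets; Vegfd and Nrp1 then count once. Over the pathway lists together, 0 of the 66 genes above the floor on both arrays were 2-fold higher as deposited, against 0.887% of all genes. The count was 1 under quantile normalization, 1 after centring, 1 with 75th-percentile scaling and 1 after the lowess trend was removed. The share over all genes was not counted under these scalings. The count 2-fold lower, also 0 as deposited against 0.676% of all genes, was 1 when the floor was the 25th percentile and 2 without one. Over all probe sets, 1.97% were 2-fold lower under that floor and 4.17% without one. The median of the pathway lists together, -0.08, was -0.019 with 75th-percentile scaling. After the lowess trend was removed, the VEGF signalling median was -0.024, still below 0, and the oxygen sensing median 0.023, and quantile normalization took the matrix list to -0.0018, so the oxygen sensing and matrix lists have no settled direction. The cause was not tested. These are 17 comparisons of a count or median with an alternative; the other 80 stayed within the spread set for them, for a median the SD of 0.44 between probe sets of one gene divided by the square root of its number of values, with no change of sign, and for a count 1.5 times. Signal at or below the floor limits what can be said of Vegfc, Pgf and Flt1. No paired analysis was possible because each graft type has 1 array.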
